A study of Homo sapiens with 9 samples.

Results

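The replication-dependent histone genes supply the core histones H2A, H2B, H3 and H4 and the linker histone H1 that package DNA copied in S phase. They were taken here as all protein-coding genes of chromosomes 1 to 22 in the GENCODE annotation of GRCh37 that are named H1-1 to H1-6, or H2AC, H2BC, H3C or H4C with a number. This gave 64 of 19229 genes. There were 6 H1, 16 H2A, 16 H2B, 13 H3 and 13 H4 genes, with 51 on chromosome 6, 12 on chromosome 1 and H4C16 alone on chromosome 12. These genes are short, lack introns in their main transcripts, and often lie head to head as an H2A gene and an H2B gene with a shared promoter. Most stand in dense clusters that gather at the histone locus body, a nuclear body organised by the coactivator NPAT. Their mRNAs end in a conserved stem-loop in place of a poly(A) tail.

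ATAC-seq, which maps open chromatin by the sites a transposase can reach, had been run on HepG2, a line derived from a human liver tumour. The cells were transfected for 72 hours with siRNA at 50 nM, which was non-targeting (NTG) or directed at INO80 (siINO80#1 or siINO80#2). INO80 provides the ATPase activity of a complex that moves nucleosomes, and its transcript and protein were not measured in these data. Each group had 3 replicates, and the authors deposited 1 peak list per group, so no replicate spread was available and no difference between lists was tested. The intervals of shares below are exact 95% binomial intervals over genes, and those of medians come from the ranked values of members. Both take genes as the unit and cover counting error alone. Neighbouring members can share a peak and are therefore not independent. The number of reads behind the lists is unknown, and both siINO80 comparisons use the same NTG list. A change in the share of cells with an open site and a change within each cell cannot be told apart.

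The lists of NTG, siINO80#1 and siINO80#2 held 69730, 69333 and 53113 peaks. A promoter peak, as defined below, was found at 9, 8 and 7 of 9 liver markers. Albumin had one only in NTG and siINO80#1, and AFP only in NTG. Their NTG summits, at 74269319 and 74316512 on chromosome 4, lay apart from the gene starts at 74262831 and 74296855. The 3 germ cell markers and the 2 muscle markers had none in any list. Of 4 blood markers 1, 1 and 0 had one, and of 2 neuron markers 0, 1 and 0. A member was said to have a promoter peak when a summit, the point of highest read density in a peak, lay within 1 kb of any of its transcript starts. Its value is the fold enrichment of its strongest such summit, which is the ratio of read density to the local background as the authors' peak caller gave it. Since this ratio is comparable within a list only, it was also given as a percentile among all summits of the same list, with 100 for the strongest.

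The 51 genes on chromosome 6 fell into 4 groups when starts within 200 kb of each other were joined. The testis genes H2AC1 and H2BC1 stood apart, then came 28 genes over 267.9 kb from H1-1 to H4C8, 5 genes over 14.3 kb from H2BC11 to H2AC12, and 16 genes over 85.5 kb from H2BC13 to H2BC17. Chromosome 1 held 10 genes over 75.6 kb from H2BC18 to H2AC21 and, far from them, the pair H2AC25 and H2BC26.

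The promoters of these families carry known letter patterns that set them apart from other genes. Windows from 250 bases before to 50 bases after the gene start were searched on both strands of GRCh37 in all 19229 genes. The octamer ATTTGCAT, the site of the transcription factor POU2F1, was present in 12 of 16 H2A and 11 of 16 H2B windows, in 1 of 13 H3 windows and in none of the H1 or H4 windows, against 1.65% of all genes. AAACACA, the H1 box, was in all 6 H1 windows and in 5.07% of all genes. GGTCCG, the core of the element bound by HINFP, was in 10 of 13 H4 windows and in 12.7% of all. CCAAT was in 55 of the 64 windows and TATAAA in 43, against 35.5% and 11% of all genes. The CRE letters TGACGTCA were in 10 of 64 against 2.28%, and the E2F letters TTTCCCGC or TTTGGCGC in 2 against 2.71%. The AP-1 letters TGACTCA and TGAGTCA were in none of the 64, against 4.0% of all genes. A match is a description of the letters and not of binding. The octamer stood in 21 of the 45 members with a peak in any list and in 3 of the 19 without, and TATAAA in 34 and 9. In windows of 200 bp around the summits AP-1 letters were found at 1 distinct member summit in each list, that is 2.86%, 2.86% and 2.94%, against 3.43%, 4.56% and 4.26% of all promoter summits.

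The sequences below show promoters that the results turn on, read from GRCh37 and written 5′ to 3′, with any of the motifs above, on either strand, in capitals. The first is the stretch between the starts of H2AC17 and H2BC17, which held the strongest NTG summit of all members. The second is the same stretch for H2BC11 and H2AC11, and the third for H2AC25 and H2BC26, which had no peak in any list. The others are the 150 bases before the starts of H3C2, H1-4 and 3 H4 genes, of which H4C4 had a peak in each list and H4C13 and H4C14 had none.
H2AC17 to H2BC17, chr6:27860964-27861202, plus strand: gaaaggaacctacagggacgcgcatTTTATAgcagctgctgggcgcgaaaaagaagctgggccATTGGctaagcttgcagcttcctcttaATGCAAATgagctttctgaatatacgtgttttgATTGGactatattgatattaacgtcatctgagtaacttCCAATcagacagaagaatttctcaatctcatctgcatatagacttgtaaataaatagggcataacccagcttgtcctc
H2BC11 to H2AC11, chr6:27100575-27100821, plus strand: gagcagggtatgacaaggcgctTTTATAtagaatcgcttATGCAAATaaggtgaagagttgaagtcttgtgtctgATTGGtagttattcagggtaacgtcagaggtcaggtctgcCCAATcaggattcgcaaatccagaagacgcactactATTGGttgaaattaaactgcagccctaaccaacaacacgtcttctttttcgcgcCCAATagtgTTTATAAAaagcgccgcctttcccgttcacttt
H2AC25 to H2BC26, chr1:228645575-228645803, plus strand: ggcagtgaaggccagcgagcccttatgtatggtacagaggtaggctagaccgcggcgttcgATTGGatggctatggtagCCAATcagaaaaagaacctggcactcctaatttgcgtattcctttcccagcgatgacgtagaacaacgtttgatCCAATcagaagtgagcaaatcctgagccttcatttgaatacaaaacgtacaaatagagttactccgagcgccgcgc
H3C2, chr6:26032328-26032477, minus strand: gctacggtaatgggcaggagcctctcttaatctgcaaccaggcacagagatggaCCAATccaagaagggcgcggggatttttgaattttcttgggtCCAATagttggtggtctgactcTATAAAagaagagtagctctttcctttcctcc
H1-4, chr6:26156407-26156556, plus strand: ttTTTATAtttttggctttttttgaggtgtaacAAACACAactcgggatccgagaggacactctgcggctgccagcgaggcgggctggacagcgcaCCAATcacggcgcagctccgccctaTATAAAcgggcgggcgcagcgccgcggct
H4C4, chr6:26189341-26189490, minus strand: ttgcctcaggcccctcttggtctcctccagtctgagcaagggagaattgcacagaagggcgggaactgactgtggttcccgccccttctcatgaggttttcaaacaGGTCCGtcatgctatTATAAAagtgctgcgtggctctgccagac
H4C13, chr6:27841313-27841462, minus strand: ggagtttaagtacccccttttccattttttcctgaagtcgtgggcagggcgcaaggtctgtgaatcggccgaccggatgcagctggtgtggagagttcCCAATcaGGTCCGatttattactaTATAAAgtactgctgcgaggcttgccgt
H4C14, chr1:149804071-149804220, plus strand: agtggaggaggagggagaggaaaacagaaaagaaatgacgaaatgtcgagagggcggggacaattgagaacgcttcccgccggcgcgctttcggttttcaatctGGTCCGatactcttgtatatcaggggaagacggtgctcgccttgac
The open H4C4 promoter and the H4C13 promoter, which had no peak, both hold GGTCCG followed by TATAAA, and H4C13 also holds CCAAT. H4C14 holds GGTCCG without TATAAA. H4C15, on the other strand of the same cluster, has the same 300-base window as H4C14, with an identity of 100%.

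The first comparison asked how many members had an open promoter with each siRNA. In NTG, 44 of 64 members (68.8%, interval 55.9 to 79.8) had a promoter peak, against 61.9% of all protein-coding genes. With siINO80#1 there were 43 (67.2%, 54.3 to 78.4), against 61.4% of all. With siINO80#2 there were also 43, against 54.6% of all genes. With all transcript starts counted, each of the 3 background shares lay inside the interval of the members. A peak in all 3 lists was found at 41 members, against 52.2% of all genes, and no peak in any list at 19, against 33.8%. With every summit counted, the member count therefore moved by 1 between lists, while the share over all genes was lowest with siINO80#2. With weaker summits left out (−log10 q of at least 5), the member counts were 40, 36 and 33. The shares of all genes were then 51.2%, 51.4% and 43.2%, so both were lowest with siINO80#2. With the gene start alone, the member counts stayed at 44, 43 and 43. The shares of all genes were then 53.5%, 53.5% and 47.1%, each below the interval of the members.

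**Figure D1:**
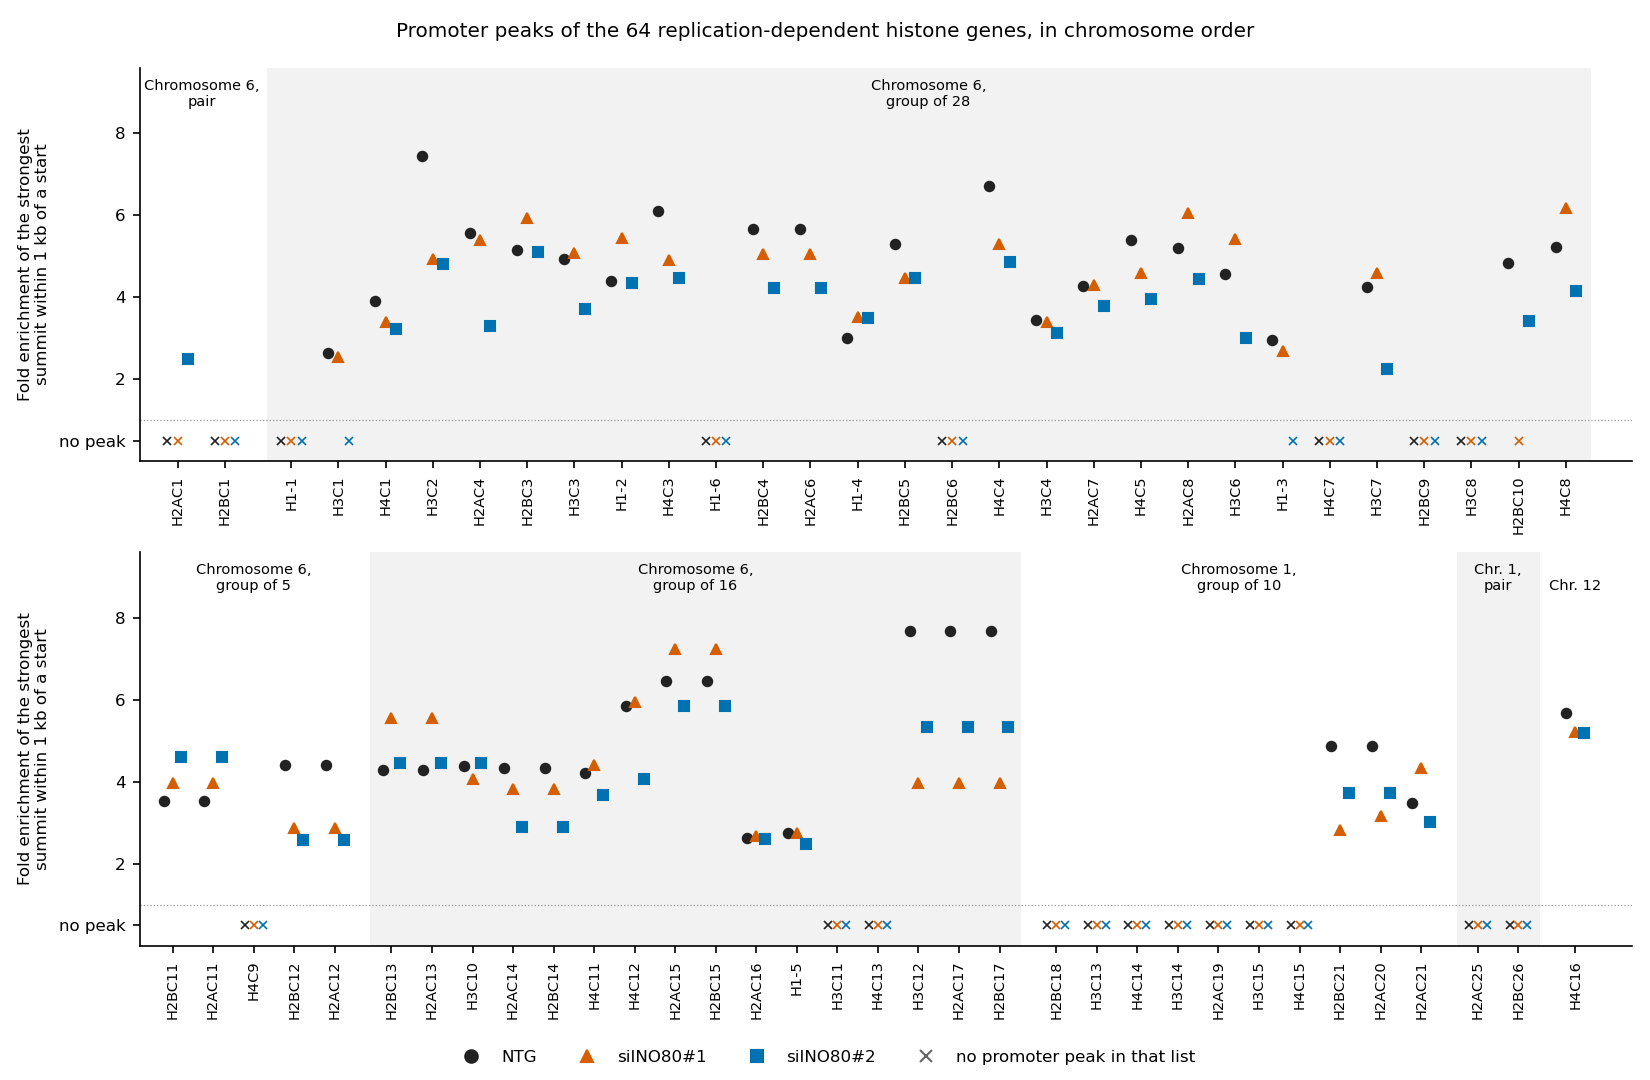
Fold enrichment (linear axis) of the strongest summit within 1 kb of a start for each of the 64 members in chromosome order, with circles for NTG, triangles for siINO80#1 and squares for siINO80#2, and a cross where a list had no promoter peak. Of the 12 chromosome 1 genes 9 show crosses in each list, and H2AC17 and H2BC17 have the highest NTG value, 7.68.

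Of the 44 members with a promoter peak in NTG, 1 had none with siINO80#1, against 6.54% of all such genes, and 2 had none with siINO80#2, against 14.4%. H2BC10, an H2B gene, had a fold enrichment of 4.84 in NTG and 3.42 with siINO80#2. It had no promoter peak with siINO80#1, where the nearest summit lay 12745 bp away. H1-3, a linker histone gene, had 2.95 in NTG and 2.67 with siINO80#1, and with siINO80#2 its nearest summit lay 10846 bp away. H3C1, an H3 gene, had 2.64 in NTG and 2.54 with siINO80#1, but these summits lay 876 and 824 bp downstream of its start and past the end of the gene, in the peak that also served H4C1. No base of H3C1 itself lay in a peak in any list. With siINO80#2 its nearest summit was 1097 bp away, just outside the distance limit.

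A promoter peak that NTG lacked was found at 0 of 20 such members with siINO80#1, against 9.40% of all such genes, and at 1 of 20 with siINO80#2, against 4.39%. This member was H2AC1, an H2A gene of testis, with a fold enrichment of 2.5 and its summit 918 bp past the start. H2AC1, H3C1 and, with siINO80#1, H2BC21 and H2AC20 were the members whose summits lay closest inside the 1 kb limit, the last pair at 895 and 977 bp. Closest outside it were H3C1 with siINO80#2, at 1097 bp, H2BC1 with siINO80#2, at 1135 bp, and H3C8 in NTG, at 1155 bp. Within 500 bp, H2AC1 and H3C1 had no promoter peak in any list, whereas H1-3 and H2BC10 were each still found in 2 lists.

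The 19 members without a promoter peak in any list were unevenly placed. On chromosome 6 they were H1-1, H1-6, H2BC1, H2BC6, H2BC9, H3C8, H3C11, H4C7, H4C9 and H4C13. H1-6 is the linker histone of testis, and H2BC1 is the partner of H2AC1 in the testis pair. On chromosome 1 they were H2BC18, H3C13, H3C14, H3C15, H4C14, H4C15, H2AC19, H2AC25 and H2BC26. In the chromosome 6 group of 28, 6 members had none, and in the groups of 5 and 16 the counts were 1 and 2.

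The second comparison set the chromosome 6 genes against those on chromosome 1. On chromosome 6, 40 of 51 members had a promoter peak in NTG (78.4%, 64.7 to 88.7), against 70.5% of 997 other genes of that chromosome. The siINO80#1 and siINO80#2 lists both had 39 (76.5%, 62.5 to 87.2), against 69.9% and 65.1%. On chromosome 1, 3 of 12 members had a peak in each of the lists (25%, 5.49 to 57.2), and these were H2BC21, H2AC20 and H2AC21. H2AC20 had a fold enrichment of 4.88 in NTG, 3.16 with siINO80#1 and 3.73 with siINO80#2, and H2AC21 had 3.49, 4.34 and 3.0. The summits given to H2AC21 were in each list also those of BOLA1, which is no histone gene and starts beside it. The other 2080 genes of chromosome 1 had a share of 59.2%, 58.4% and 50.5%. The chromosome 1 interval in NTG lay below that of chromosome 6.

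The chromosome 1 genes also differed in their sequence. The 50-base words within 500 bp of each gene start were searched in the whole of GRCh37, and the share of words found once was taken. On chromosome 6 the lowest share was 56.7%, at H4C11 and H4C12, and the median was 100%. On chromosome 1 the median was 34.2%. It was 0% at H3C14, H3C15, H4C14, H4C15 and H2AC19, whose windows each have an exact copy in the same cluster, 28.4% at H3C13 and 40.1% at H2BC18. These 7 genes had no peak in any list. The window of H2AC19 has its exact copy at an H2A gene that the annotation still lists as HIST2H2AA3 and that the naming rule did not include. That gene had a promoter peak in NTG, with a fold enrichment of 3.11, and with siINO80#1, with 2.76, but none with siINO80#2. Its summits, at positions 149815120 and 149815101, lay outside the copied window, which runs from 149814269 to 149814568.

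Few genes with repeated starts had peaks anywhere in the genome. Of 307 genes with a share under 10%, 5.21% had a promoter peak in NTG, and of 374 with a share from 10% to 50%, 14.2%. Of 17511 genes with a share of at least 90% it was 64.9%. Among members with a share of at least 50%, a setting chosen after seeing the data, 3 of 5 on chromosome 1 had a peak in each list (60.0%, 14.7 to 94.7), while the chromosome 6 counts were unchanged at 40, 39 and 39 of 51. How reads with several matches were placed is not given in the sources used here, and the part of repeated sequence in the missing peaks was not tested. H2AC25 and H2BC26 had shares of 85.9% and 85.6% and no peak, and the 10 chromosome 6 members without a peak had shares of at least 93.2%.

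**Figure D2:**
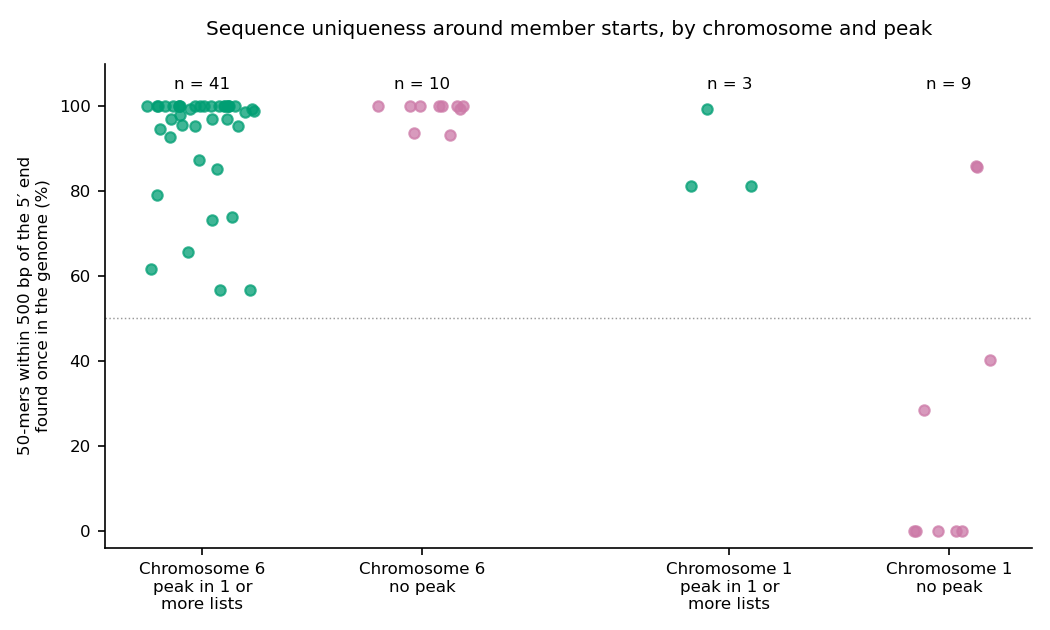
Share of 50-base words within 500 bp of the gene start that occur once in GRCh37 (percent, 1 point per member), for chromosome 6 and chromosome 1 members with a promoter peak in 1 or more lists and without. The 7 members under the dotted line at 50% are all chromosome 1 genes without a peak.

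The third comparison asked how strong the member promoters were within each list. The median percentile of the members with a peak was 75.6 in NTG, 76.6 with siINO80#1 and 72.7 with siINO80#2. Over all protein-coding genes with a peak it was 82.2, 82.3 and 79.1. Only 14 of 44 members lay above the median of all genes in NTG, 16 of 43 with siINO80#1 and 11 of 43 with siINO80#2. The median fold enrichment of members was 4.70, 4.41 and 4.06, against 5.35, 4.98 and 4.53 for all genes. By fold enrichment the median member thus ranked below the median open promoter in every list. By −log10 q both medians were 84.4 in NTG.

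The order by fold enrichment was reversed in NTG and with siINO80#1, but not with siINO80#2, when the local background was left out. Read density at the summit and the local background were solved from fold enrichment and −log10 p, assuming the formulas of MACS2, and were divided by the lowest background of the list. The local background of members had medians of 2.34, 2.22 and 1.98 times that floor, against 1.79, 1.79 and 1.65 for all genes. It was 2.27, 2.29 and 2.07 for the other genes of chromosome 6, so this level was not particular to members. The density at the summit had medians of 12, 10.1 and 7.50 for members and 10.7, 9.5 and 8.06 for all genes. By this measure members lay above all genes in NTG and with siINO80#1, and below them with siINO80#2. In density, the other genes of chromosome 6 had medians of 14.4, 13 and 10.5. Their median fold enrichment was 5.91, 5.50 and 4.93, against 4.48, 4.46 and 4.155 for the chromosome 6 members.

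**Figure D3:**
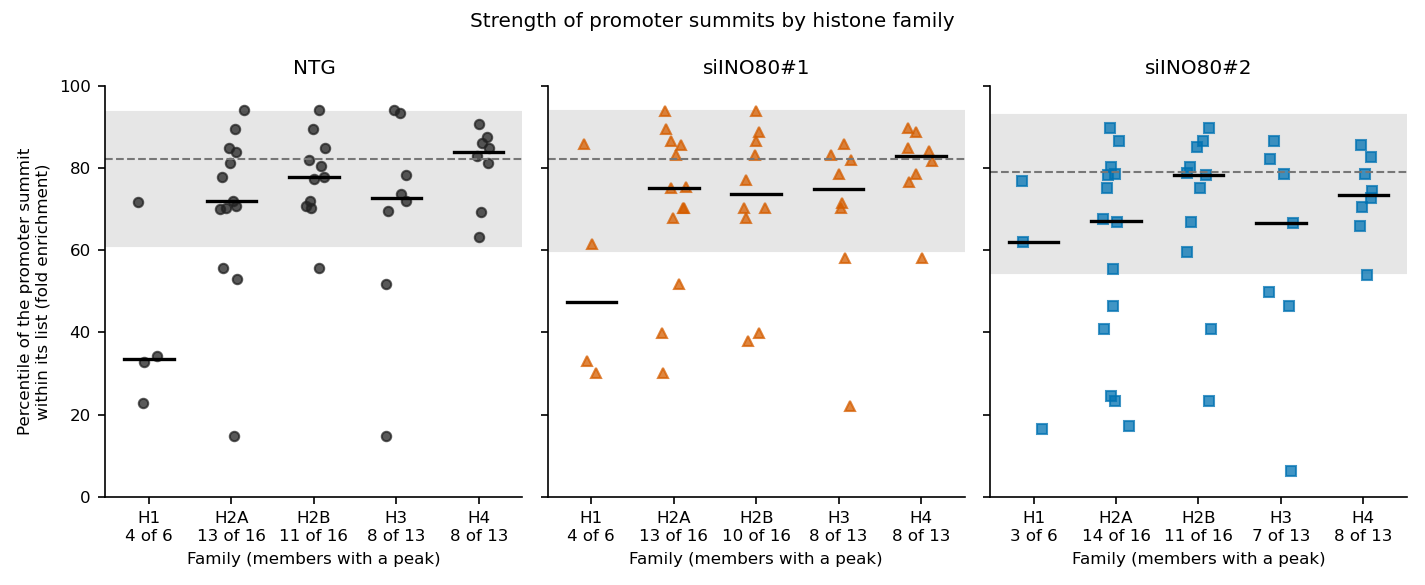
Percentile of each member's strongest promoter summit among all summits of its list, by histone family, in the 3 lists. Points are members with a peak (their number of the family total is under each name), black bars are family medians, the dashed line is the median and the grey band the middle 50% of all protein-coding genes with a peak; the H1 median in NTG, 33.6, is the lowest and the H4 median, 83.9, the highest.

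The families differed in strength. Among H1 genes, which encode the linker histone, 4 of 6 had a peak in NTG with a median percentile of 33.6. H1-2 stood highest, with a fold enrichment of 4.38 in NTG, 5.46 with siINO80#1 and 4.35 with siINO80#2. H1-4 had 2.99, 3.52 and 3.5. H1-5 was the lowest in NTG, with 2.74, 2.76 and 2.48, while H1-3 was the lowest with siINO80#1. With siINO80#1 the H1 median was 47.3 over 4 genes, and with siINO80#2 it was 62.1 over 3, since H1-3 had dropped out.

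The H2A and H2B genes, whose products form a dimer in the nucleosome, had a peak at 13 of 16 and 11 of 16 members in NTG. Their median percentiles were 72.1 and 77.8. H2AC17 and H2BC17 shared the strongest summit of NTG, with 7.68 in NTG, 3.97 with siINO80#1 and 5.34 with siINO80#2. Next in NTG, and highest in both siINO80 lists, came the summit between H2AC15 and H2BC15, with 6.45, 7.24 and 5.84. H2AC16 was the lowest H2A gene in NTG, with 2.63, 2.68 and 2.60, and H2BC11 the lowest H2B gene, with 3.54, 3.97 and 4.61.

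H3 and H4, which form the tetramer at the core of the nucleosome, each had a peak at 8 of 13 genes in NTG, with median percentiles of 72.8 and 83.9. One transcript of H3C12 starts beside H2AC17, so that the gene was given the summit of that pair, which ranked it highest among H3 genes in NTG and with siINO80#2. With siINO80#1 H3C6 was highest, at 5.42. The next H3 gene in NTG was H3C2, with 7.45, 4.94 and 4.81. H3C1 was the lowest in NTG. Among H4 genes H4C4 was highest in NTG, with 6.72, 5.29 and 4.86. H4C8 was highest with siINO80#1, at 6.17, and H4C16 with siINO80#2. H4C1 was lowest in each list, with 3.91, 3.38 and 3.23. All 8 H4 genes kept a peak in every list. H4C16, on chromosome 12 and apart from any cluster, had 5.68, 5.20 and 5.20, with summits close to transcript starts downstream of its 5′ end.

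By median width, member peaks were broader than those of all genes. The median width of the 32 distinct peaks in NTG was 1023 bp, against 719 bp for the distinct promoter peaks of all genes, and 53.1% of them were at least 1000 bp wide, against 28.7%. The medians were 908 bp and 742 bp with siINO80#1 and 693 bp and 660 bp with siINO80#2. Counted per gene, the medians of chromosome 6 members were 1044, 909 and 742 bp in NTG, siINO80#1 and siINO80#2. Those of the other chromosome 6 genes were 886, 911 and 833 bp, so members were broader than these in NTG alone. Genes of up to 1 kb were often covered by a peak for much of their length. The median share of the gene body inside a peak was 79.7% for 33 such members in NTG, against 25.8% for 53 other short genes with a promoter peak. It was 81.4% against 24.7% with siINO80#1 and 61.1% against 29.5% with siINO80#2.

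Members shared peaks, since 44 members with a peak in NTG rested on 35 distinct summits in 32 peaks. Head-to-head pairs with at most 400 bp between the starts numbered 11 among members, with a median of 239 bases between, and 751 among all genes, with a median of 109 bases. A promoter peak was present at 9, 9 and 10 of the 11 member pairs, and at 691, 690 and 661 of the 751 pairs of all genes. Among member pairs with a peak, a summit lay between the starts in 8, 9 and 6, that is 88.9%, 100% and 60.0%. Among all pairs with a peak it was 45.3%, 51.9% and 44.6%. The member pairs have more bases between their starts, and the part of this distance was not tested. With siINO80#2 no summit lay between H2BC4 and H2AC6, H2BC12 and H2AC12, H2AC14 and H2BC14, or H2AC1 and H2BC1. Between H2BC12 and H2AC12 there was none in NTG either. H3C12 and H2AC17 each paired with H2BC17 around 1 shared summit. H2AC25 and H2BC26 had no peak, and the stretch between them holds 3 CCAAT boxes.

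**Figure D4:**
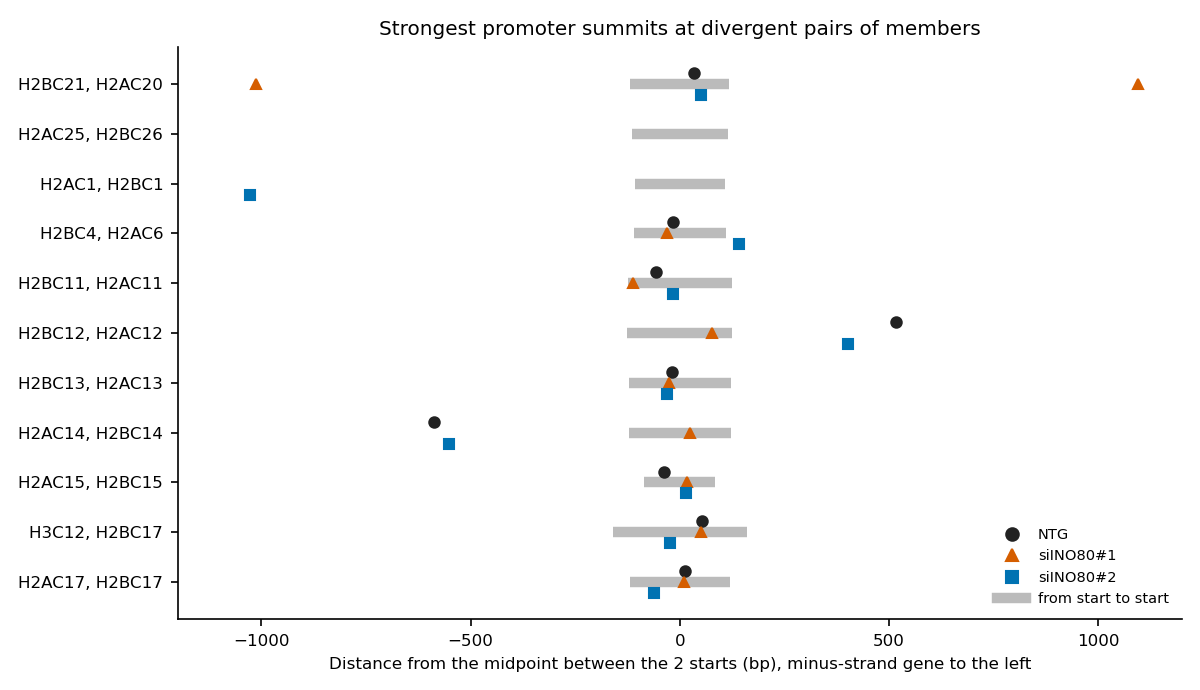
Position of the strongest promoter summit of either gene (bp from the midpoint between the starts, minus-strand gene to the left) for the 11 head-to-head pairs of members, by list. Grey bars run from start to start; rows without symbols had no peak, and the siINO80#1 summits of H2BC21 and H2AC20 lay about 1 kb to either side.

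The last comparison asked whether single promoters changed with the siRNAs. The log2 ratio of fold enrichment over NTG was centred on its median over all genes with a peak in both lists, which was -0.09 for siINO80#1 and -0.30 for siINO80#2. The centred median of the members was 0.04 with siINO80#1 over 43 genes and -0.06 with siINO80#2 over 42 genes. Ratios were above 0 at 23 of 43 and 20 of 42 members, and the middle 50% of members spanned 0.41 and 0.39, against 0.40 and 0.44 for all genes.

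Past 1.5-fold with siINO80#1 were 0 members upward, against 2.68% of all genes, and 4 downward, against 3.75%. With siINO80#2 there were 2 upward, against 2.88%, and 1 downward, against 5.08%. No member passed 1.5-fold in the same direction with both siRNAs. The counts were small and some members shared 1 peak, so that the 4 downward genes stood for 2 distinct summits in NTG.

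H3C12, H2AC17 and H2BC17 shared the peak with the strongest NTG summit of the members. Its fold enrichment of 7.68 was 3.97 with siINO80#1, a centred log2 ratio of -0.86, and 5.34 with siINO80#2, a ratio of -0.23. The summits lay within the stretch printed above in each list. Density at the summit over the list floor was 25.9 in NTG, 11.2 with siINO80#1 and 13.7 with siINO80#2.

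H2BC21, on chromosome 1, had 4.88, 2.82 and 3.73, with centred ratios of -0.70 and -0.09. Its strongest siINO80#1 summit lay 895 bp into the gene, whereas the NTG and siINO80#2 summits lay between H2BC21 and H2AC20. In the siINO80#1 list the summit between these starts had 2.32. With any base of the peak counted, the ratio was -0.08, since the siINO80#1 peak with the 4.34 summit of H2AC21 then came within reach. With summits within 500 bp alone it was -0.99, and H2AC20 was also past 1.5-fold downward. By density over the floor it was -0.95. The call for H2BC21 thus depended on which summit was taken.

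H2BC11 and H2AC11 shared 1 summit with 3.54 in NTG, 3.97 with siINO80#1 and 4.61 with siINO80#2, and centred ratios of 0.26 and 0.68. This summit lay in the printed stretch between the genes in every list, which holds 4 CCAAT boxes and 1 octamer. H3C7, an H3 gene, had 4.24, 4.58 and 2.25, with ratios of 0.20 and -0.62 and summits 303, 602 and 473 bp downstream of the start, the siINO80#1 summit lying past the end of the gene. The 2 siRNAs thus differed in direction at H3C7, which was not tested. With density over the floor its siINO80#2 ratio was -0.56, short of 1.5-fold, and it was not past 1.5-fold when summits under a −log10 q of 5 were left out. H3C2 had ratios of -0.50 and -0.33 and H2BC12 with H2AC12 -0.52 and -0.48, all short of 1.5-fold. The ratios of H2BC12 and H2AC12 compare different positions. Their summit lay at 27115276 in NTG, 27114837 with siINO80#1 and 27115162 with siINO80#2. The largest upward ratio with siINO80#1 was 0.46 at H2BC13 and H2AC13, which share a summit with 4.29, 5.55 and 4.45.

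**Figure D5:**
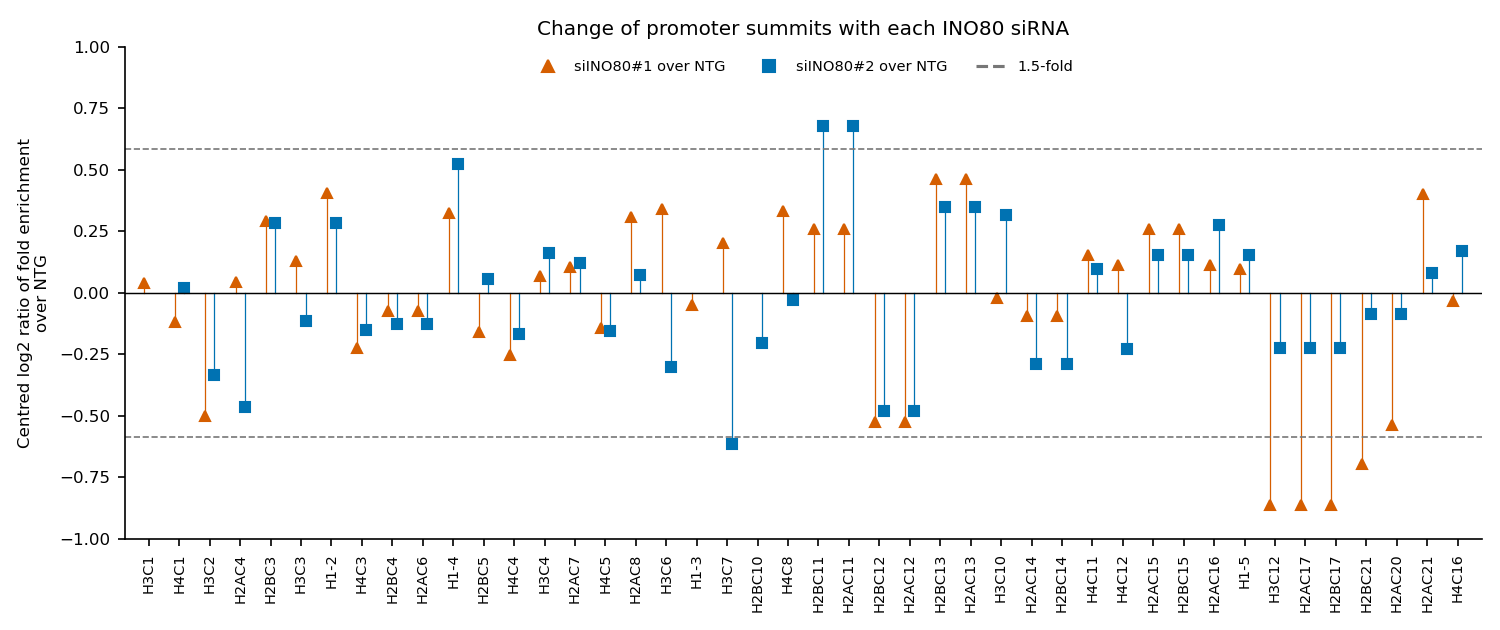
Centred log2 ratio of fold enrichment over NTG for each member with a promoter peak in NTG and at least 1 siINO80 list, in chromosome order by cluster, with triangles for siINO80#1 and squares for siINO80#2. Dashed lines mark 1.5-fold; H3C12, H2AC17 and H2BC17 at -0.86 are the lowest points with siINO80#1, and H2BC11 and H2AC11 at 0.68 the highest with siINO80#2.

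Genes around this pathway were described beside the members. Of 19 regulators and processing factors of histone mRNA, 18, 19 and 17 had a promoter peak in NTG, siINO80#1 and siINO80#2. NPAT, the coactivator of the histone locus body, had a fold enrichment of 11.1, 9.0 and 9.44, above every member in each list. CASP8AP2, a further component of that body, had 8.91, 10.8 and 9.32. HINFP, which binds the H4 element, had 6.52, 7.44 and 7.04. SLBP, which binds the stem-loop of histone mRNA, had 5.30, 4.5 and 2.51, with centred ratios of -0.15 and -0.78. SYMPK, a scaffold of the processing complex, had 5.015 in NTG, 3.71 with siINO80#1 and 2.24 with siINO80#2, with ratios of -0.34 and -0.87. SLBP and SYMPK were the 2 of 17 regulators past 1.5-fold downward with siINO80#2, against 5.08% of all genes. None of 18 was past 1.5-fold with siINO80#1, and none rose past it with either siRNA.

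Of 12 replication-independent histone genes, whose transcription is not confined to S phase, 10, 9 and 9 had a promoter peak, with median percentiles of 77.1, 80.5 and 76.5. H2AX, the variant phosphorylated at DNA breaks, had 5.15, 4.2 and 3.77. H2AZ1 had 6.05, 6.61 and 5.26. The H3.3 genes H3-3A and H3-3B had 4.70, 5.29 and 4.31, and 4.58, 4.21 and 3.34. The H3-3B values are of different sites, with the summit at 73780785 in NTG, 73776073 with siINO80#1 and 73775971 with siINO80#2. The median percentiles of those with a peak lay within 5 percentile points of the members' medians in each list.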

How the data were processed

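The study measured chromatin accessibility by ATAC-seq in 9 HepG2 samples, 3 for each siRNA. Their titles name the siRNA, which set the groups, and the authors deposited 1 MACS2-style peak list per group, with replicates pooled or called together, so no value per replicate was used. The submitters' processing notes name Trim Galore 0.4.1, Bowtie2, SAMtools, MACS2, deepTools 2.2.4 and hg19, without giving their roles. In the deposited lists each summit has a fold enrichment, which is a ratio to the local background, and p and q as −log10 values. All 3 lists began at a −log10 q of 1.30. Peak positions are the authors' own, and 0 peaks ended beyond their chromosome in GRCh37. Depth is unknown, so no precision of single values can be given.

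Summits were assigned to all transcript starts of 19229 protein-coding genes (GENCODE release 44, lifted to GRCh37). The strongest summit within 1 kb represented a gene. Density and background were solved from fold enrichment and −log10 p for all but 2, 9 and 6 summits. With 1 list per group no test was made, and called means past 1.5-fold after centring. Of the regulators listed, 19 of 21 were matched, CSTF2 and ARS2 not being among these genes. The 12 replication-independent histone genes and all markers matched. Members and lists were chosen with earlier results of these data known. Named members are those whose peak differed among the lists, those without a peak, the strongest and weakest NTG gene of each family, those past 1.5-fold with both siRNAs, H4C16 and the testis genes, with 4 regulators and 4 replication-independent genes, 1 further gene not being reported here. Members past 1.5-fold with 1 siRNA, and H1-4, H3C2, H2AC15 with H2BC15, H2BC12 with H2AC12, H4C11, H4C12, H2BC13 with H2AC13, H2AC20, H2AC21, H3C6, H4C8, SYMPK, BOLA1 and HIST2H2AA3, were named after their values were seen.

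Alternatives were distances of 500 bp and 2.5 kb, any base of the peak, a −log10 q of at least 5, equal list size, the gene start alone, density over the floor, and −log10 q as strength. Members with repeated starts left out and shared summits counted once were chosen after seeing the data. Assignment, centring and the recovery of density were tested on simulated data and gave the known answers in 100% of cases. The calculations used scipy 1.17.1, pandas 2.3.3, numpy 2.4.6 and matplotlib 3.10.9 under Python 3.11.15.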

Additional observations from a re-analysis of the deposited data

Results flagged for a closer look

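The members' median log2 ratio over NTG lay on opposite sides of the median of all genes in the 2 siINO80 lists, at 0.04 with siINO80#1 (95% interval -0.095 to 0.155) and -0.06 with siINO80#2 (-0.156 to 0.122) after centring. These intervals run over member genes, some of which share a summit, and hold no spread between replicates. They therefore cannot test an effect of the siRNAs. The uncentred fold enrichment of the members had medians of 4.70 in NTG, 4.41 and 4.06. H3C7 had 0.20 with siINO80#1 and -0.62 with siINO80#2. Whether these effects differ was not tested, because there was a single list per siRNA, and both ratios use the same NTG list. With density over the floor in place of fold enrichment both medians were below 0, at -0.11 and -0.21.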

How the results depend on the processing

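No paired analysis was possible because the lists carry no replicate numbers, and for the same reason no replicate could be left out. A share or median counted as changed when it left the 95% interval of its reported value, and a count when it moved by over 1.5 times. Over all settings 125 values of the group results did not change and 22 did. Of the values of single members 68 did not change and 10 did. For these, a change meant another number of lists or a ratio no longer past 1.5-fold. With a −log10 q of at least 5 the chromosome 6 share with siINO80#2 was 58.8%, the median percentiles were 52.4, 58.3 and 54.1, beside 72.6, 72.3 and 70.2 for all genes, and 0 members were past 1.5-fold downward with siINO80#2, beside 3.57% of all genes. The members thus lay further below all genes than with every summit counted. With density over the floor the median percentiles were 88.1, 86.7 and 78.6, beside 84.7, 84.9 and 81.6 for all genes, and the centred medians -0.11 and -0.21. With −log10 q as strength the NTG percentile was 84.4, the same as for all genes, and the siINO80#2 median -0.28, with 6 members up and 10 down for siINO80#1 and 5 up and 12 down for siINO80#2, beside 16.8%, 19.6%, 18.8% and 23.3% of all genes. Within 2.5 kb 2 of 45 members were past 1.5-fold downward with siINO80#2, beside 5.06% of all genes. Without the members under 50% unique words the chromosome 1 share was 60.0% in each list. Counting shared summits once left 2 downward with siINO80#1 and 1 upward with siINO80#2. The cause of these changes was not tested. No called ratio of a named member changed sign under these settings. H3C1 had a promoter peak in all 3 lists within 2.5 kb or by any base of the peak and in 0 within 500 bp. H2AC1, H1-3 and H3C1 had 0 with a −log10 q of at least 5.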
